A study of Mus musculus with 16 samples.

Results

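Mog encodes myelin oligodendrocyte glycoprotein, a surface protein of the myelin made by mature oligodendrocytes. The 16 libraries of a mouse retinal pigment epithelium (RPE) series were ranked by their Mog level, and the 5 highest, chosen by Mog level alone, were set against the 5 lowest (10 of 16 libraries, with 6 between them). The level is given in CPM, the read count of a gene scaled by the total count of its library. Because a measured value chose the libraries, every difference between the Mog-high and Mog-low libraries below is a description with no test. The tests concern the study's own factors and the 6 libraries in neither set.

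Oligodendrocytes wrap axons of the central nervous system in myelin, a stack of membrane rich in a few proteins and in galactolipids. In the mouse the axons of retinal ganglion cells carry no myelin inside the retina and become myelinated in the optic nerve behind the eye, where astrocytes lie among them. The RPE is the pigmented layer between the photoreceptors and the choroid, and it holds no oligodendrocytes.

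The study exposed mice to hydroquinone, an oxidant, in the presence or absence of SUCNR1, the receptor for succinate. All mice were male C57BL/6 mice aged 40 weeks, either wild type or Sucnr1 knockout, and either untreated or exposed to hydroquinone, with 4 libraries in each of the 4 groups and 1 eye per library. Retina and anterior structures were dissected away first, and the RPE was then lifted from the choroid with forceps. The labels give neither the dose of hydroquinone nor the kind of knockout allele, and they do not say how the optic nerve was handled.

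The Mog-high set held untreated wild-type replicates 1 and 4, untreated knockout replicates 1 and 3 and hydroquinone knockout replicate 1. The Mog-low set held untreated wild-type replicate 3, hydroquinone wild-type replicates 2, 3 and 4 and hydroquinone knockout replicate 3. Thus 4 of 5 Mog-high libraries were untreated and 4 of 5 Mog-low libraries had hydroquinone, so Mog rank and treatment cannot be fully told apart in this contrast. The titles name 13 mice, 3 of which gave both eyes. The Mog-high set came from 4 mice and the Mog-low set from 5, with 1 mouse in both (untreated wild-type replicates 4 and 3). Both untreated knockout libraries of the Mog-high set came from the same mouse. Library totals were 21113549 to 31089282 counts in the Mog-high set and 23356175 to 35332444 in the Mog-low set. Genes with at least 1 count numbered 21277 to 24477 in 14 libraries, and the remaining libraries, which had fewer, were untreated knockout replicate 1 (17904, Mog-high) and untreated wild-type replicate 3 (18282, Mog-low). Sucnr1 itself had 29 counts over all wild-type libraries and 4 over all knockout libraries, too few to check the genotype of a library. Of the genes in 24 cell type and pathway lists, 252 of 268 passed the filter of a mean of at least 1 CPM.

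Mog (chromosome 17, 37010743 to 37023398, minus strand, GRCm38) was at 94.8, 52.6, 49.0, 40.4 and 39.3 CPM in the Mog-high libraries. It was at 0.605, 0.283, 0.214, 0 and 0 CPM in the Mog-low libraries, where the highest value rests on 15 reads. A count of 0 allows up to 0.119 CPM in hydroquinone wild-type replicate 3 and 0.0974 CPM in hydroquinone knockout replicate 3 (3 counts per library, counting error only). The 6 libraries between were at 24.1, 15.1, 7.71, 7.55, 2.68 and 0.810 CPM, so the nearest excluded values were 24.1 below the upper limit of 39.3 and 0.810 above the lower limit of 0.605. The libraries between filled the range, and the sets are the ends of 1 scale rather than separate clusters.

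The major myelin structural genes differed between the sets in the same direction as Mog. Mbp, which encodes the myelin basic protein that compacts the membrane, was at 3935, 2321, 2328, 1721 and 2097 CPM in the Mog-high libraries (in falling order of Mog, as in all lists of 5 below). It was at 95.1, 132, 117, 82.0 and 84.8 CPM in the Mog-low libraries. No Mog-low library came near the Mog-high range, yet Mbp did not approach 0 in any of them. As background, the Mbp gene also makes golli transcripts in cells without myelin, and counts per gene do not separate them. The difference of mean log2(CPM + 1), Mog-high minus Mog-low, was 4.56. Such log2 differences understate the change of genes near 0.

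Mobp (chromosome 9, 120149707 to 120181484, plus strand), which encodes a basic protein of central myelin, was at 1543, 745, 879, 685 and 776 CPM against 4.16, 1.44, 3.55, 0.436 and 0.0974 CPM. Its log2 difference of 8.49 was the largest of the 15380 genes compared, and untreated wild-type replicate 1 was highest for Mog, Mbp and Mobp alike. Mag (chromosome 7, 30899176 to 30914873, minus strand), the adhesion molecule of the inner myelin surface facing the axon, was at 220, 125, 131, 96.9 and 128 CPM against 1.13, 1.87, 1.71, 0.714 and 1.82 CPM. Cldn11 (chromosome 3, 31149920 to 31164324, plus strand), the claudin of the tight junctions within myelin, was at 179, 126, 118, 113 and 104 CPM against 3.03, 2.38, 2.78, 1.31 and 2.57 CPM. Log2 differences were 5.82 for Mag and 5.24 for Cldn11, and neither gene overlapped between the sets.

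Cnp (chromosome 11, 100574904 to 100591729, plus strand), which encodes a phosphodiesterase that keeps cytoplasmic channels open in myelin, was at 368, 238, 206, 166 and 205 CPM in the Mog-high libraries. In the Mog-low libraries it kept 18.9, 22.5, 20.4, 18.2 and 25.0 CPM, and its log2 difference was 3.39. Like Mbp, it therefore had a level in the Mog-low libraries well above that of a few reads. Opalin, a glycoprotein of central myelin, was at 0 in 4 of 5 Mog-low libraries and at 3.35 to 9.06 CPM in the Mog-high ones. Cntn2, Hapln2 and Tspan2 were also higher without overlap (log2 differences 5.02, 3.89 and 2.95). Omg, which lies inside an intron of Nf1, was higher without overlap by only 0.89.

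Of the 16 genes in the list of myelin proteins, all of which passed the filter, 12 were higher without overlap, and the median log2 difference was 3.64. Over all 15380 genes, 423 were higher without overlap (2.75%) and 90 were lower (0.585%), and the median log2 difference was 0.02. With a log2 difference of at least 1 as well, 224 genes were higher (1.46%) and 1 was lower (0.0065%). Since Mog itself set the libraries apart, nothing is read from the share of the lists against these percentages.

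**Figure D1:**
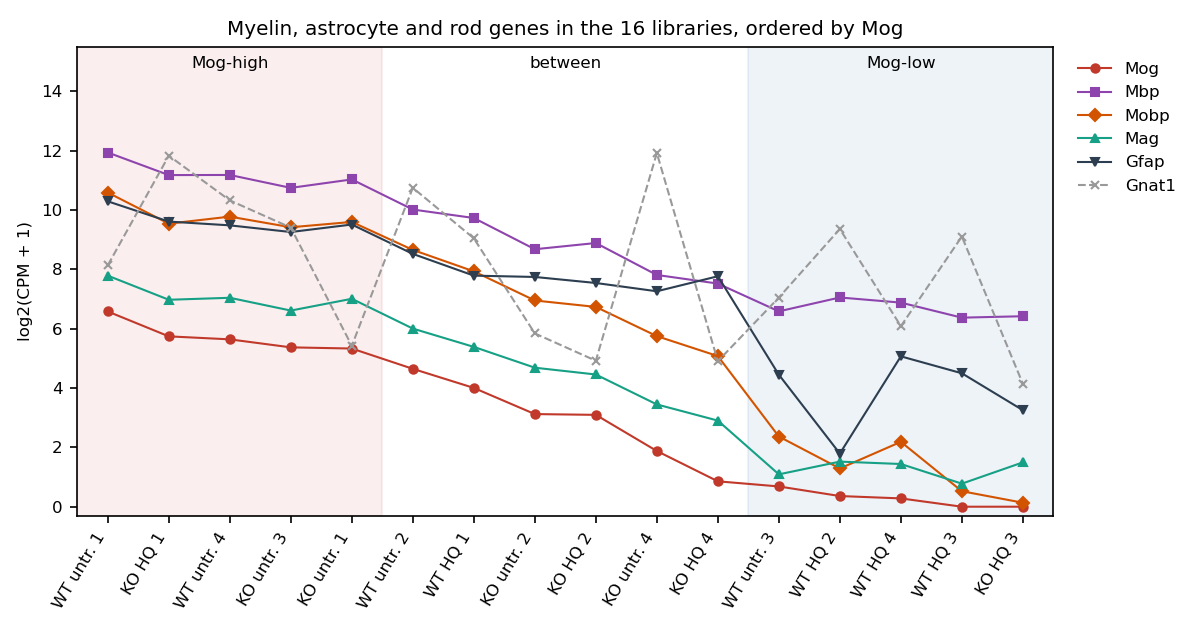
Levels of 6 genes as log2(CPM + 1) (vertical axis) in each of the 16 libraries, ordered from the highest to the lowest Mog (horizontal axis; WT wild type, KO knockout, untr. untreated, HQ hydroquinone, number the replicate); shading marks the 5 Mog-high and 5 Mog-low libraries. Mbp, Mobp, Mag and Gfap run down broadly with Mog, from 3935 CPM to 84.8 CPM for Mbp between the ends, while Gnat1, the rod transducin gene, is high and low in both shaded sets.

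The other 4 myelin list members overlapped between the sets. Ermn, which encodes ermin, a cytoskeletal protein of late oligodendrocytes, was at 499, 463, 442, 584 and 542 CPM against 577, 312, 591, 653 and 448 CPM (log2 difference 0.01). The Mog-low libraries thus held as much Ermn as the Mog-high ones, although Mog, Mobp and Mag were far lower there. Which cells gave this Ermn was not tested, so it is not read as oligodendrocyte content. Mal, a membrane protein of myelin that is also made by many epithelia, was at 843 to 1602 CPM against 333 to 1476 CPM (0.67). Pllp and Tmem125 overlapped too (1.06 and 1.27).

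The promoters of 3 genes are shown because they mark the ends of this range: Mog, which ranked the libraries, Mobp, with the largest difference, and Ermn, with almost none. Each sequence runs from 250 bases before to 50 after the RefSeq start of the gene (GRCm38.p6), on the strand of the gene. Capitals mark ACAAAG or ACAATG on either strand (CTTTGT or CATTGT on the strand shown), the short core bound by SOX factors such as SOX10. The windows are chr17:37023349-37023648 (minus strand) for Mog, chr9:120149492-120149791 (plus strand) for Mobp and chr2:58052815-58053114 (minus strand) for Ermn.
Mog: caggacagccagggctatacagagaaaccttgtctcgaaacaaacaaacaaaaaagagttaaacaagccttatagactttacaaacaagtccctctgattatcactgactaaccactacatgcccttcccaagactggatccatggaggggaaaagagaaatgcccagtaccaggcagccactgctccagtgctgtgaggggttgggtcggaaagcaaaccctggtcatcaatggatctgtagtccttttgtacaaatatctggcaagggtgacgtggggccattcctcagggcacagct
Mobp: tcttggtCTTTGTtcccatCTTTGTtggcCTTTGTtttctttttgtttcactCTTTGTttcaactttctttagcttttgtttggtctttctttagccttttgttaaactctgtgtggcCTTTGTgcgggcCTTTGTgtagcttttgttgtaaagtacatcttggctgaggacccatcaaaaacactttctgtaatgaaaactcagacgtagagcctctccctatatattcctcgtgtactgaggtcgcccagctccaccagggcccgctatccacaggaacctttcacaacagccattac
Ermn: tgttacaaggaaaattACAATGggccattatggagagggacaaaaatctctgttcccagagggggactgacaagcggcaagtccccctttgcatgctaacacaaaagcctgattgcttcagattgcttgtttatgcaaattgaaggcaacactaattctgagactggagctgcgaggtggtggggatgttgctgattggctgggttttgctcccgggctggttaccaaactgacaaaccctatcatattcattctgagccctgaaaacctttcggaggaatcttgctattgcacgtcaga
The Mobp window held 6 matches, all of them CTTTGT, the Ermn window held 1, and the Mog window held 0. Of 32851 RefSeq promoters, 28.6% held at least 1 match, and of 14896 promoters of genes tested here, 20.3% did. Among oligodendrocyte list genes higher without overlap, 21 had promoters in the table, and 12 of their 28 promoters (42.9%) held a match. Among those that overlapped, 3 of 9 promoters did. A match is a string in a window and was not tied to binding.

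The enzymes, channels and receptors of oligodendrocytes followed the structural genes. Ugt8a (chromosome 3, 125865271 to 125938619, minus strand), the transferase that makes galactosylceramide, was at 95.3, 61.9, 39.0, 36.7 and 42.2 CPM against 0, 0.142, 0.300, 0.674 and 0.162 CPM. Fa2h, the hydroxylase that supplies its 2-hydroxy fatty acids, was at 49.7, 30.4, 27.9, 17.8 and 23.0 CPM against 0.888, 0.396, 0.557, 0 and 0.487 CPM. Both were below 1 CPM in every Mog-low library (log2 differences 5.41 and 4.34). Gal3st1, which sulfates galactosylceramide to sulfatide, overlapped (1.74), because hydroquinone wild-type replicate 2 was at 9.17 CPM and the Mog-high libraries ranged from 5.15 to 13.3 CPM.

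Connexin genes of oligodendrocyte gap junctions were higher in the Mog-high libraries without overlap, with a log2 difference of 3.99 for Gjb1 (connexin 32) and of 2.42 for Gjc3 (connexin 29). So were the secreted protease gene Klk6 (4.72), the orphan receptor gene Gpr37 (3.10), and Bcas1 (2.97), which marks newly myelinating cells. Ppp1r14a (2.92), the protease gene Adamts4 (2.72), Anln, a scaffold of septins (2.60), and the choline phosphodiesterase gene Enpp6 (2.37) did not overlap either. Aspa, which breaks down N-acetylaspartate, differed by 0.88 without overlap, and the sphingosine phosphate receptor gene S1pr5 overlapped (1.42). In this list 13 of the 15 members that passed the filter were higher without overlap, with a median log2 difference of 2.92. Ninj2 and Carns1 did not pass it.

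The transcription factors of the lineage fell into separate patterns. Olig1 (chromosome 16, 91269772 to 91271933, plus strand), a basic helix-loop-helix factor that defines the lineage together with Olig2, was at 51.6, 37.7, 28.2, 19.5 and 26.3 CPM against 0, 0.113, 0, 0.0396 and 0 CPM. Olig2 (chromosome 16, 91225457 to 91228677, plus strand) was at 11.3, 9.97, 7.01, 5.53 and 6.87 CPM, and in the Mog-low libraries it was at 0 in 4 and at 0.0428 CPM in the other. Nkx6-2, a homeodomain factor of maturing oligodendrocytes, was at 7.20 to 16.2 CPM against 0 to 0.119 CPM. These 3 genes were near or at 0 in all Mog-low libraries, with log2 differences of 4.96, 3.14 and 3.41. Sox8 (2.33) and St18 (2.28) were higher without overlap as well.

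Sox10 and Myrf, the factors that activate myelin genes, did not separate the sets. Sox10 was at 108, 76.3, 98.9, 94.1 and 106 CPM against 73.6, 66.8, 89.8, 75.3 and 97.6 CPM (log2 difference 0.26). Myrf was at 373, 347, 376, 433 and 438 CPM against 365, 228, 384, 489 and 453 CPM (0.08). As background, melanocytes also express Sox10, and Myrf is also known from the RPE. Zfp488 overlapped at low levels (0.55). Of 8 factors that passed the filter 5 were higher without overlap, with a median of 2.30, and Nkx2-2 did not pass it.

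Over the 3 oligodendrocyte lists together, 39 of 42 genes passed the filter, 30 were higher without overlap, 28 of them by at least 1 on the log2 scale, and 9 overlapped. The median log2 difference was 2.95. Their summed level was 7198 to 14275 CPM (median 8430) in the Mog-high and 1675 to 2491 CPM (median 1990) in the Mog-low libraries. By list, the sums were 6197 to 12779 against 1059 to 2078 CPM for myelin proteins and 424 to 907 against 55.2 to 113 CPM for enzymes and channels. For transcription factors they were 508 to 602 against 299 to 569 CPM. Mal, Ermn and Myrf, which overlapped, made up much of the Mog-low sum. The sum therefore understates the difference of the genes that separated the sets. Within the 8 untreated libraries alone, 3 against 3 by Mog, 34 of the 39 were higher without overlap (median 2.40). Within the 8 hydroquinone libraries it was 30 of the 39 (median 1.85). These smaller sets were again ranked by Mog, so their values are a description too. By accident, 3 against 3 libraries are free of overlap more often than 5 against 5, so the earlier 2.75% does not apply. With a difference of at least 1 as well, 147 of all 15380 genes were higher in the untreated and 163 in the hydroquinone split. The share of all genes by overlap alone is not reported for these splits, so nothing is read from the counts out of 39. In the untreated split the eyes of 1 wild-type mouse (replicates 4 and 3) fell on opposite sides. Some library identifiers carry a letter and others do not. Within the libraries with a letter 33 of the 39 were higher without overlap (3 against 3, median 2.46), and within those without it 31 were (median 3.09). In the split with a letter the libraries higher in Mog were all untreated and the lower ones all had hydroquinone. Mog rank and treatment cannot be told apart there. Of all 15380 genes, 713 were higher by at least 1 without overlap in that split and 323 in the split without a letter. For the splits by letter the share by overlap alone is not reported either, and nothing is read from their counts. In bulk RNA, more oligodendrocytes and more RNA per oligodendrocyte cannot be told apart.

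**Figure D2:**
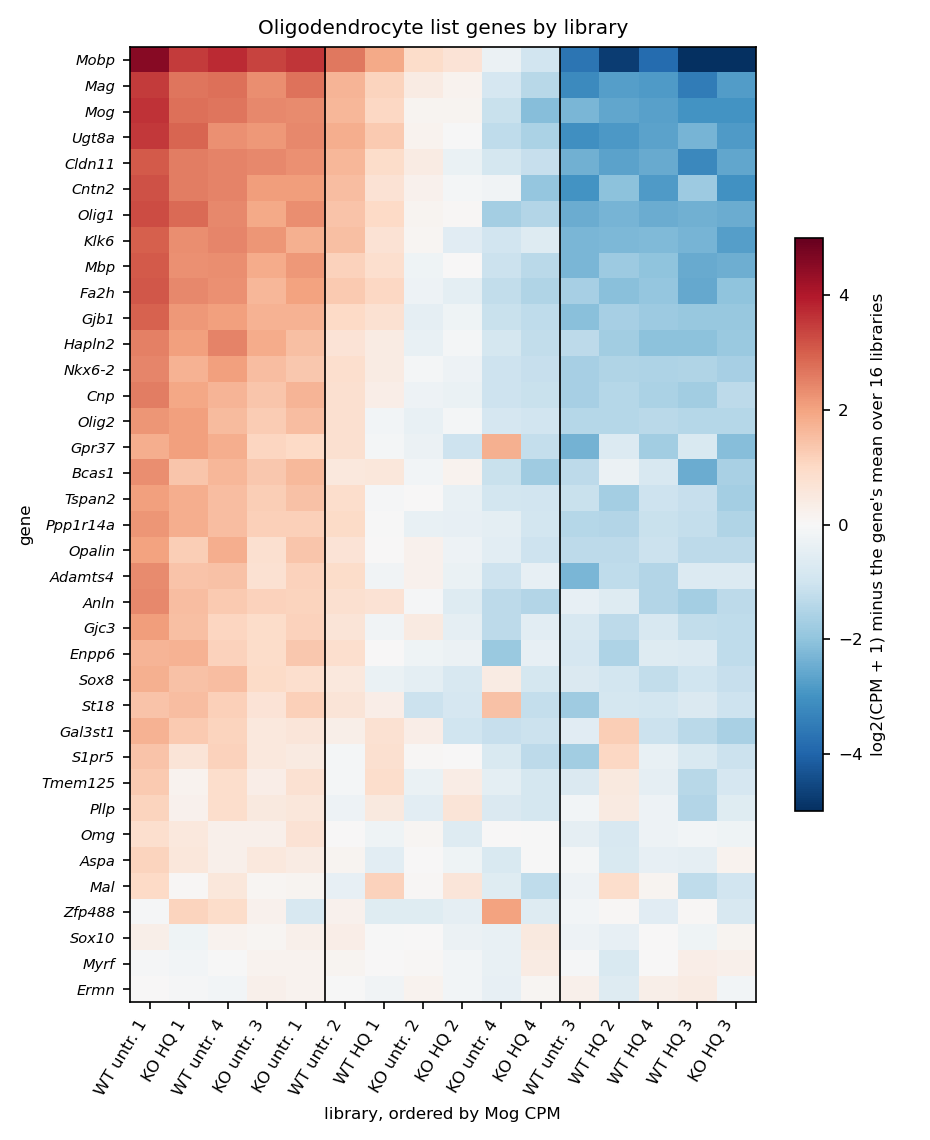
Levels of 37 oligodendrocyte list genes that passed the filter (one per line, ordered by the difference between the sets) in the 16 libraries, ordered by Mog (columns; WT wild type, KO knockout, untr. untreated, HQ hydroquinone); color gives log2(CPM + 1) minus the mean of the gene over the 16 libraries, and vertical lines bound the 5 Mog-high and 5 Mog-low libraries. Genes from Mobp down to St18 are red at left and blue at right, and Sox10, Myrf and Ermn at the bottom stay near their means throughout.

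Genes of oligodendrocyte precursors did not follow as a group. Gpr17, a receptor of cells committed to differentiate, was at 18.6, 8.19, 7.50, 5.24 and 7.48 CPM against 0, 0.0566, 0, 0 and 0 CPM (log2 difference 3.25). It was the only one of the 7 members that passed the filter to be higher without overlap. Pdgfra, the growth factor receptor that defines precursors and that fibroblasts also carry, was at 47.1 to 86.4 CPM against 54.5 to 86.3 CPM (-0.05). Cspg4, the NG2 proteoglycan gene, which pericytes share, differed by 0.05, Tnr by -0.44 and Cacng4 by 0.13. C1ql1 and Lhfpl3 overlapped (1.36 and 1.28), and Neu4 did not pass the filter. The median of the list was 0.13.

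Markers of Schwann cells, which make the myelin of peripheral nerves, did not separate the sets. The peripheral myelin genes Prx (log2 difference 0.18), Ncmap (0.57), Drp2 (0.59) and Gldn (0.55), the Schwann cell factor gene Egr2 (-0.43) and the Schwann cell precursor marker Cdh19 (-0.16) overlapped. Pmp22 had a median of 131 CPM in the Mog-high and 134 CPM in the Mog-low libraries. Of the 8 members that passed the filter 0 were free of overlap (median 0.36), and Pmp2 did not pass it.

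Part of the astrocyte list was higher in the Mog-high libraries. Gfap (chromosome 11, 102887336 to 102900912, minus strand), the intermediate filament of astrocytes, was at 1257, 783, 716, 613 and 730 CPM against 20.9, 2.46, 32.6, 21.6 and 8.54 CPM, a log2 difference of 5.82. The 6 libraries between were at 153 to 367 CPM, so Gfap there stood far above every Mog-low library. Agt, the angiotensinogen gene that astrocytes express, was at 14.9 to 31.7 CPM against 1.56 to 3.37 CPM (2.73). Acsbg1 (2.74), Ntsr2 (1.85), Aqp4, the water channel of astrocyte end feet (1.77), Itih3 (1.51) and S100b (1.30) were higher without overlap as well.

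The other 8 of 15 astrocyte genes overlapped. Aldoc, a glycolytic aldolase, was at 190 to 401 CPM against 194 to 463 CPM (-0.04). Aldh1l1, a folate enzyme that marks astrocytes, was at 59.9 to 76.1 CPM against 60.0 to 85.3 CPM (-0.15). Neither was near 0 in any of these 10 libraries. Pla2g7, Slc39a12 and Fgfr3 also differed by less than 0.2 in size (-0.18, -0.07 and -0.07), and Gjb6 (0.77), Fabp7 (0.60) and Pax2 (1.11), a marker of optic nerve head astrocytes, overlapped. The median over the 15 was 1.11. It was 0.72 within the untreated and 0.40 within the hydroquinone libraries.

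Genes of Müller glia, the radial glia of the retina, split in the same way. Kcnj10 (chromosome 1, 172341210 to 172374085, plus strand), the potassium channel Kir4.1 that astrocytes and oligodendrocytes also use, was at 81.6, 64.5, 52.7, 42.7 and 51.7 CPM against 6.46, 4.50, 6.12, 10.2 and 4.16 CPM (log2 difference 3.06). Slc1a3, a glutamate transporter of astrocytes and Müller glia, was at 88.7 to 163 CPM against 18.3 to 37.9 CPM (2.02), and Sox2 differed by 2.34 without overlap. Glul, glutamine synthetase, was at 1958 to 2718 CPM against 1970 to 2596 CPM (-0.02), and Dkk3 (-0.14), Car14 (-0.09), Lhx2 (0.01) and Abca8a (0.05) overlapped. As background, astrocytes also express the 3 genes that differed, but 8 of the 15 astrocyte list genes overlapped between the sets. Which cells gave the split was not tested. The median of the 8 Müller glia members was 0.03.

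Microglial genes mostly overlapped. Sall1, a transcription factor of microglia, was at 16.1, 12.8, 11.7, 9.87 and 9.33 CPM against 0.525, 0.481, 2.83, 1.78 and 0.942 CPM (log2 difference 2.56), and Siglech was higher without overlap (1.72). Csf1r, the growth factor receptor of microglia and macrophages, was at 206 to 260 CPM against 177 to 317 CPM (-0.18). C1qa (0.04), C1qb (-0.07), Tmem119 (0.12), Cx3cr1 (0.84) and P2ry12 (0.95) overlapped. So 2 of 15 microglial genes were free of overlap (median 0.04), and 0 of the 7 genes of other macrophages were (median -0.27).

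**Figure D3:**
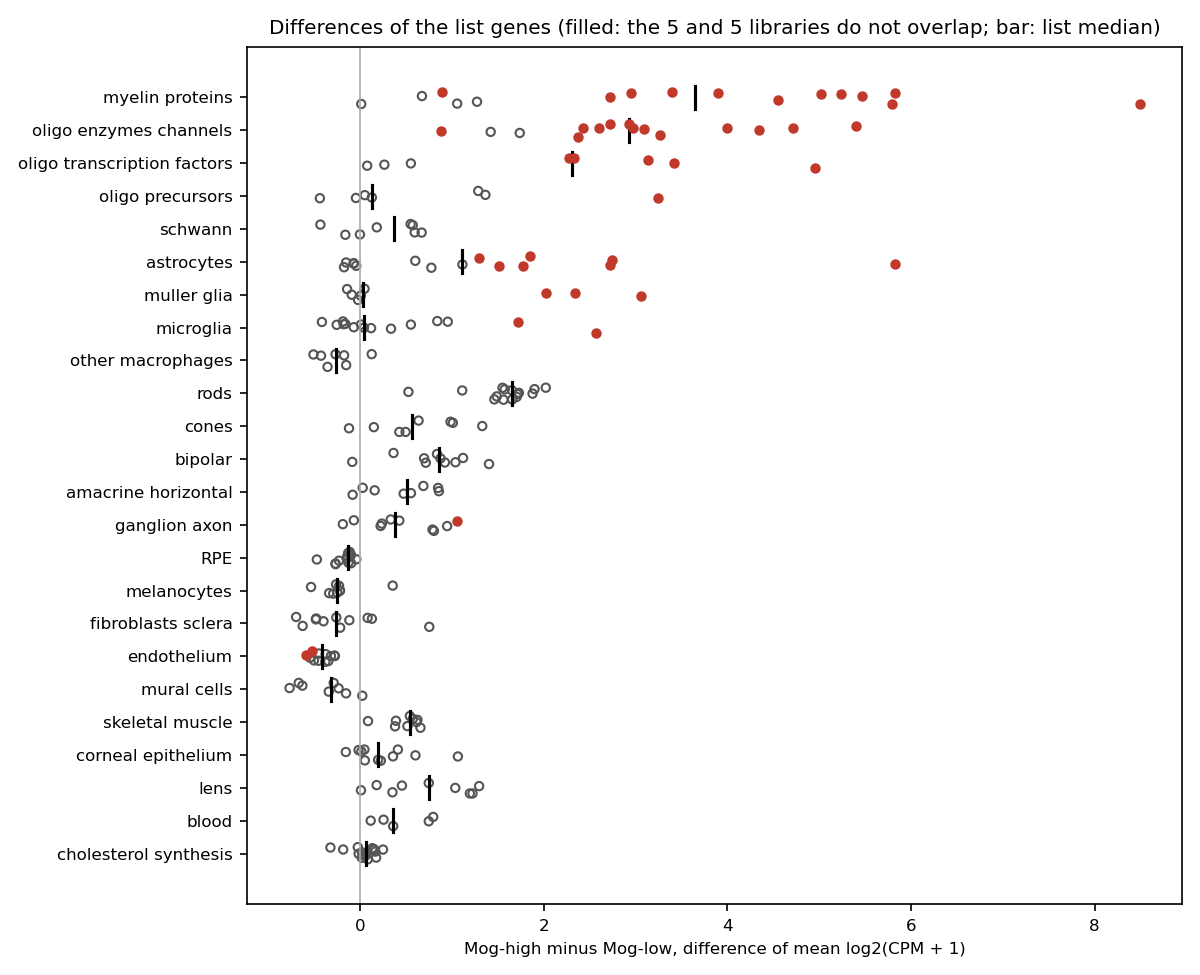
Differences of mean log2(CPM + 1), Mog-high minus Mog-low (horizontal axis), for the members of each of the 24 lists that passed the filter (vertical axis); filled points are genes whose 5 and 5 libraries do not overlap, open points overlap, and bars mark list medians. Oligodendrocyte lists reach to 8.49 (Mobp) with medians of 2.30 to 3.64, astrocyte and Müller lists hold filled and open points, and the rod list lies wholly to the right of 0 with open points only.

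Retinal neuron genes did not separate the sets. Gnat1 (chromosome 9, 107674474 to 107679712, minus strand), the transducin subunit of rods, was at 281, 3653, 1285, 679 and 42.0 CPM in the Mog-high libraries. It was at 132, 658, 66.9, 552 and 16.7 CPM in the Mog-low libraries and at 29.0 to 3885 CPM in those between. Its highest value was thus in a library of neither set, and Mog-high knockout replicate 1 of the untreated group had less Gnat1 than 4 of the 5 Mog-low libraries. Within the Mog-high set Gnat1 varied 87.0-fold between its lowest and highest library, where Mog varied 2.41-fold and Mbp 2.29-fold. The ranking by Mog limited the range of Mog there, and with it that of Mbp, so nothing is read from this contrast. In the 6 libraries between, Gnat1 varied 134-fold, Mog 29.7-fold and Mbp 5.67-fold.

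All 15 rod genes had a higher mean in the Mog-high libraries, and 0 of 15 were free of overlap, against 2.75% of all genes higher without overlap. Log2 differences ran from 0.52 for Rom1, an outer segment disc protein, to 2.02 for Nr2e3, a rod transcription factor, with 1.88 for Gnat1 and 1.65 for the disc rim gene Prph2 (median 1.65). The mean log2(CPM + 1) of the 15 genes was 6.09, 9.59, 8.22, 7.25 and 3.53 in the Mog-high libraries. It was 5.28, 7.39, 4.32, 7.08 and 2.76 in the Mog-low libraries, so the spread inside each set exceeded the difference between them. The median difference was 0.84 within untreated and 1.97 within hydroquinone libraries. Within libraries whose identifier has no letter it was -0.22, with 0 of 15 free of overlap. Within those with a letter it was 4.84, with 15 of 15. In that last split the libraries higher in Mog were all untreated and the lower ones all had hydroquinone. Mog rank and treatment cannot be told apart there, and 713 of all 15380 genes were higher without overlap by at least 1. The share of all genes by overlap alone is not reported for that split. Over the remaining Mog-high and Mog-low libraries, the rod median was 0.94 without hydroquinone knockout replicate 1 and 0.98 without hydroquinone knockout replicate 3. Without untreated knockout replicate 1 it was 2.53, and without both of the libraries with the fewest genes it was 2.49.

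**Figure D4:**
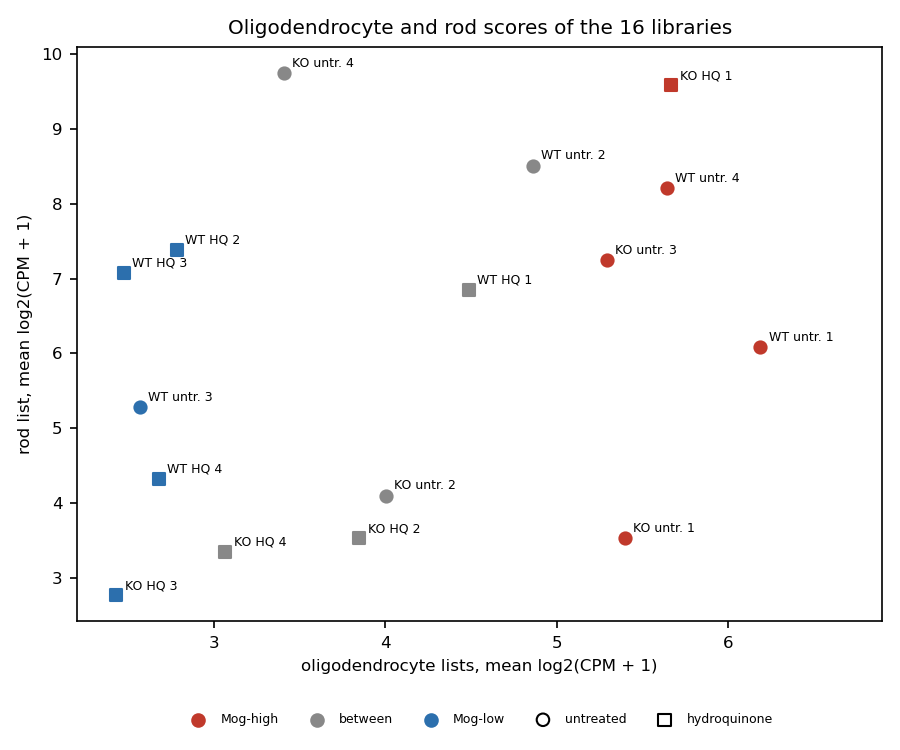
Mean log2(CPM + 1) of the 39 oligodendrocyte genes (horizontal axis) and of the 15 rod genes (vertical axis), with one point per library (16 libraries; red Mog-high, gray between, blue Mog-low; circles untreated, squares hydroquinone). Mog-high libraries lie at the right over a rod range of 3.53 to 9.59, and Mog-low libraries lie at the left over 2.76 to 7.39.

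Cone, bipolar and amacrine or horizontal cell genes overlapped in every case. Opn1sw, the short-wavelength cone opsin, was at 22.3, 53.4, 87.9, 28.7 and 2.32 CPM against 11.7, 23.4, 4.37, 26.6 and 1.43 CPM (log2 difference 1.33), and the median of the 8 cone genes was 0.56. The 10 bipolar genes had a median of 0.85 and ran from -0.09 for Nyx to 1.40 for Lrtm1. The 8 amacrine and horizontal cell genes had a median of 0.51, with 0.85 for Gad1, an enzyme that makes GABA. In these lists Cnga3, Chat, Th, Lhx1, Onecut1 and Onecut2 did not pass the filter.

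Genes of ganglion cells, whose axons form the optic nerve, stayed mostly within overlap as well. Nefl, the light neurofilament, was at 12.7, 26.9, 45.9, 28.0 and 9.95 CPM against 5.17, 37.1, 10.9, 26.0 and 1.82 CPM (log2 difference 0.95). Rbpms, an RNA-binding protein that marks ganglion cells, differed by -0.19, Thy1 by -0.07 and Sncg by 0.79. Gap43, a growth protein of axons, was the exception, at 8.18, 7.34, 8.08, 6.79 and 6.30 CPM against 4.00, 4.27, 2.74, 3.81 and 1.17 CPM (1.05). The highest Gap43 level, 11.5 CPM, was in untreated knockout replicate 4 of neither set, where Mog was at 2.68 CPM. The list median was 0.38, and Pou4f2, Pou4f3 and Isl2 did not pass the filter. Over the 5 neuron lists 1 of 51 genes was higher without overlap, a share near the 2.75% of all genes, 46 of 51 had a difference above 0, and the median was 0.85.

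The cells of the labelled tissue were present in both sets. The summed level of 12 RPE genes was 21929 to 30794 CPM in the Mog-high and 20883 to 31530 CPM in the Mog-low libraries. Rpe65, the retinoid isomerase of the visual cycle, was at 2589, 2433, 2563, 3606 and 3166 CPM against 4260, 2115, 3829, 4214 and 3227 CPM (log2 difference -0.27). All 12 RPE genes overlapped, all had a difference below 0, and the median was -0.14. Melanocyte genes (0 of 9 free of overlap, median -0.25) and fibroblast and scleral genes (0 of 11, median -0.26) overlapped as well. Among 12 endothelial genes Plvap (-0.52) and Emcn (-0.59) were lower without overlap, against 0.585% of all genes, and the median was -0.42. Genes of cholesterol synthesis, which myelinating cells need, had a median of 0.06, with 0 of 16 free of overlap. Corneal epithelial genes summed to 8030 to 17619 CPM against 4847 to 31002 CPM (median 0.19), and skeletal muscle genes had a median of 0.54 with 0 of 9 free of overlap. Lens genes had a median of 0.75, with all 9 that passed the filter above 0 and 0 free of overlap, and blood genes a median of 0.36, with 5 of 5 above 0 and 0 free of overlap. The part of any of these tissues in the differences was not tested.

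The genes most like Mog were ranked by Pearson's r of log2(CPM + 1) over the 16 libraries from 13 mice, as a measure of likeness only. The nearest 15 had r of 0.98 to 0.99, and 13 of them belonged to the oligodendrocyte lists. Among them, in order, were Mbp, Olig1, Cldn11, Ugt8a, Fa2h, Mag, Prr18, Nkx6-2, Gjb1, Hapln2, Grm3, Klk6 and Cnp. The members in no list were Prr18, at 21.7 to 46.0 CPM against 0.0396 to 0.428 CPM (log2 difference 4.63), and the glutamate receptor gene Grm3, at 5.24 to 10.9 CPM against 0 to 0.257 CPM (3.04).

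Among genes in no list, the largest higher differences without overlap after Prr18 were those of Stmn4, of the stathmin family of microtubule regulators (4.56), Tmem88b (4.53), Hepacam, a glial adhesion molecule (4.43), Sez6l2 (4.30) and Gpr37l1, a receptor of astrocytes (4.02). They were followed by Sox2ot (3.68), Efnb3 (3.54), Tubb4a, a tubulin abundant in oligodendrocytes (3.47), and Sap30bpos (3.46). Sox2ot overlaps Sox2, and Sap30bpos is named as an opposite-strand transcript, and reads of such overlapping genes cannot be told apart where the counting is not stated to use strand. Hepacam was at 36.7, 27.6, 24.0, 18.7 and 18.9 CPM against 0.0404, 0.255, 0.214, 0.0396 and 0.390 CPM, near 0 in all Mog-low libraries. Of the 224 genes higher without overlap by at least 1, 42 were in any list.

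The only gene lower without overlap by at least 1 was Sfrp2, a secreted modulator of Wnt signaling. It was at 17.9, 13.9, 10.8, 6.05 and 17.1 CPM against 28.8, 25.7, 34.5, 35.7 and 24.9 CPM (-1.20). The next were Chad (-0.95), Aspn (-0.94) and Tnmd (-0.87), which encode matrix proteins of cartilage and tendon-like tissue, then the scavenger receptor gene Msr1 (-0.86), Tnfsf10 (-0.79) and Bpifb1 (-0.79). Col12a1 (-0.78), a fibril-associated collagen, Chil1 (-0.77) and Prss12 (-0.77) completed the 10.

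The 6 libraries between the sets, from 6 mice, did not enter the contrast, and correlations with Mog were tested in them. They are not independent of the ranking, because their Mog values placed them between the sets. Untreated wild-type replicate 2 also came from the same mouse as Mog-high untreated wild-type replicate 1. Mog ran from 0.810 to 24.1 CPM there and Mbp from 183 to 1037 CPM. Mog and Mbp gave Pearson's r = 0.98 (exact permutation p = 0.0028, adjusted 0.0074) and Spearman's rho = 0.94 (exact permutation p = 0.017, adjusted 0.033; 8 values adjusted together). Without the 2 libraries farthest from the median Mog, r was 0.99. Mbp thus followed Mog closely in these 6 libraries.

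Gfap did not pass in the same 6 libraries. Mog and Gfap gave r = 0.62 (exact permutation p = 0.179, adjusted 0.239) and rho = 0.66 (exact permutation p = 0.175, adjusted 0.239), with r = 0.93 without the 2 farthest. In these libraries Gfap varied 2.41-fold, while Mog varied 29.7-fold. Libraries with and without an identifier letter were 3 each, too few for values within each form.

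The eyes of 1 mouse could differ as much as libraries of different mice. In 1 untreated wild-type mouse the right eye (replicate 3) had 0.605 CPM of Mog and the left eye (replicate 4) 49.0 CPM, an 80.9-fold difference. The same eyes had 95.1 and 2328 CPM of Mbp, 20.9 and 716 CPM of Gfap and 132 and 1285 CPM of Gnat1. In the other untreated wild-type mouse the right eye (replicate 1) had 94.8 CPM of Mog and 281 CPM of Gnat1, and the left eye (replicate 2) had 24.1 CPM of Mog and 1724 CPM of Gnat1, so Mog and Gnat1 differed in opposite directions. In the untreated knockout mouse with both eyes, Mog was at 40.4 and 39.3 CPM and Gnat1 at 679 and 42.0 CPM in the right and left eye. Genotype, treatment and animal were the same within each pair.

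Mog did not differ between the study's groups beyond their spread. It averaged 42.1 ± 40.3 CPM in untreated wild type (SD, n = 4 libraries of 2 mice) and 3.89 ± 7.45 CPM in wild type with hydroquinone (SD, n = 4 mice). It averaged 22.5 ± 20.1 CPM in untreated knockout (SD, n = 4 libraries of 3 mice) and 15.2 ± 25.1 CPM in knockout with hydroquinone (SD, n = 4 mice). The order of the means was untreated wild type, untreated knockout, knockout with hydroquinone and wild type with hydroquinone, and neighbours in it overlapped. Hydroquinone minus untreated mice differed by -2.03 on the log2(CPM + 1) scale (8 against 5 mice, eyes averaged, 2-sided exact permutation p = 0.102), and knockout minus wild type by 0.63 (7 against 6 mice, 2-sided exact permutation p = 0.625).

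**Figure D5:**
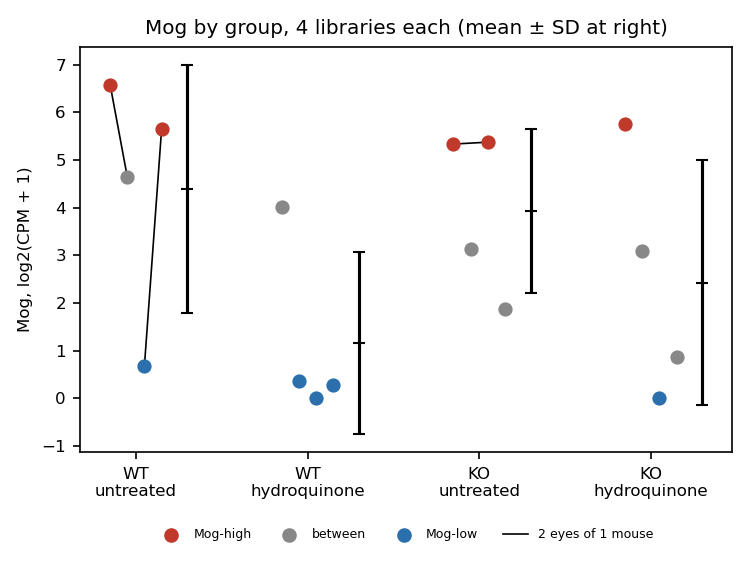
Mog as log2(CPM + 1) (vertical axis) in the 4 libraries of each group (horizontal axis; WT wild type, KO knockout; red Mog-high, gray between, blue Mog-low), with the mean and SD beside them and lines joining the eyes of 1 mouse. All 4 groups overlap, and 1 untreated wild-type mouse spans 0.605 to 49.0 CPM between its eyes.

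The study's factors were then tested over all 15380 genes with edgeR's quasi-likelihood test, with adjusted p below 0.05 as the threshold. For hydroquinone averaged over genotype, 11 genes were higher (0.0715%) and 2 lower (0.013%), and 879 (5.72%) had an unadjusted p below 0.05. Both eyes of 3 untreated mice entered as separate libraries, and when their counts were added up per mouse edgeR called 6 of the 13 and no others. DESeq2 called 37, and edgeR called 7 to 15 with each library left out. Of the 39 oligodendrocyte genes 0 passed, also with DESeq2 and limma, 6 had an unadjusted p below 0.05, and 37 had a log2 fold change below 0, with a median of -1.34 against 0.005 over all genes. Mog had a log2 fold change of -1.97 (SE 1.22, adjusted p = 0.914, edgeR), Mbp of -1.57 (SE 0.82, adjusted p = 0.901) and Gfap of -1.78 (SE 0.91, adjusted p = 0.901). The oligodendrocyte gene with the smallest p was Sox8, at -1.35 (edgeR adjusted p = 0.823). These libraries are the same ones that the Mog ranking drew on, with 4 of 5 Mog-high untreated, so the values are not independent of the contrast above.

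Of the 15 astrocyte genes 0 passed with edgeR and 7 had an unadjusted p below 0.05, with a median log2 fold change of -0.80 under hydroquinone. S100b was at -0.87 (SE 0.27, edgeR adjusted p = 0.761). Of the 8 genes of Müller glia 0 passed with edgeR and 3 had an unadjusted p below 0.05, with a median of -0.19. Slc1a3 was at -0.92 (SE 0.30, edgeR adjusted p = 0.775) and Kcnj10 at -1.42 (SE 0.54, edgeR adjusted p = 0.823). Of the 51 retinal neuron genes 0 passed with edgeR and 1, Gap43, had an unadjusted p below 0.05 (log2 fold change -0.78, edgeR adjusted p = 0.868). Yet 47 of the 51 had a log2 fold change below 0, with a median of -0.64 against 0.005 over all genes. The lean below 0 was thus not particular to the glial lists. With log2(CPM + 1) of Mog as a covariate, an alternative chosen after the data were seen, edgeR called 8 genes for hydroquinone in place of 13, and 7 were shared.

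For knockout against wild type averaged over treatment, edgeR called 0 of 15380 genes, 456 (2.96%) had an unadjusted p below 0.05, and DESeq2 called 0. Among the oligodendrocyte genes 0 had an unadjusted p below 0.05, the median log2 fold change was 0.35, and Mog was at 0.52 (SE 1.18, edgeR adjusted p = 0.987). For the interaction of genotype and hydroquinone, edgeR and DESeq2 called 0 genes, and 296 (1.92%) had an unadjusted edgeR p below 0.05. There 1 oligodendrocyte gene had an unadjusted p below 0.05, the median was 1.88, and Mog was at 2.82 (SE 2.40, edgeR adjusted p = 1.00). A p that misses the threshold does not show that the levels were equal.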

How the data were processed

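RNA from the RPE of single eyes was sequenced in 16 libraries. The authors deposited 1 table of whole-number read counts for 51912 Ensembl mouse genes. Its name announces FPKM, but 100% of values are whole and totals differ, so they were used as counts. STAR, Cufflinks and DESeq2 and the build mm10 are named per the submitters' processing notes, without versions, and the counting tool and strand setting are not given in the sources used here. A table of Ensembl identifiers and symbols matched 51633 of them, coordinates came from GENCODE vM21 (GRCm38), and promoters from RefSeq (GRCm38.p6).

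CPM used the deposited column totals. The 15380 genes at a mean level of 1 CPM or more (99.8% of counts) were compared on log2(CPM + 1), as the difference of means and as overlap of the 5 and 5 libraries. The study's factors were tested with edgeR 4.0.16 (quasi-likelihood F test, TMM, 4 group means, R 4.3.3) with Benjamini-Hochberg adjustment over all genes. Alternatives used DESeq2 1.42.0 and limma 3.58.1. On simulated counts for hydroquinone averaged over genotype (15380 genes, 200 changed), edgeR recovered 75% of 2-fold and 96% of 4-fold changes, with 8 false among 179 calls. The simulated libraries were independent of each other, and the changes were increases in genes drawn at random. These shares therefore need not hold for genes that vary strongly between libraries, such as Mog.

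Groups came from the titles, which name 13 mice although the protocol gives 4 animals per group. Eyes of 1 mouse entered edgeR as separate libraries. Nothing says that libraries of a group were prepared independently, so p-values measure the spread between these samples. No pair of libraries of a group was a copy (smallest chi-square per degree of freedom 21.9).

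The members and lists were chosen with earlier results of these data known. Genes named were Mog and Mbp, all oligodendrocyte and precursor list members that passed the filter, some members of the other neural, glial and microglial lists, Rpe65, Plvap and Emcn, the 10 genes in no list with the largest difference without overlap in each direction, and the 15 genes nearest to Mog. A rule to name the 4 members of highest mean level from each other list was not kept: several lists are given by counts, medians or sums alone. List members named outside those 4, and the genes Kif5a, Elavl3, Gria1, Scg3, Nnat, Slc24a2, Mlc1 and Gatm, were chosen after their values were seen. Some list genes enter the counts, medians and scores but are not reported by name here, and neither are 4 of the 8 correlation values adjusted together.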

Additional observations from a re-analysis of the deposited data

Results flagged for a closer look

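In each group and set of 4 or 5 libraries, 13 measures (levels of single genes and list scores) were searched for a library whose gap to its nearest neighbour was above Dixon's 95% critical value. Of 78 sets of values 4 had one, where chance alone would give about 3.9 if they were independent. The values below are log2(CPM + 1), or its mean over a list.

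Hydroquinone wild-type replicate 1 stood above the other 3 libraries of its group in the oligodendrocyte genes. Mog was at 4.00 there, against 0 to 0.36 in the others. The score of the 39 oligodendrocyte genes was 4.49 against 2.47 to 2.78.

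Rods gave a different library. In hydroquinone knockout replicate 1 the rod score was 9.59, against 2.76 to 3.53 in the others of its group. That library was also the only one of its group in the Mog-high set. Among the Mog-low libraries the RPE score of hydroquinone wild-type replicate 2 was 9.17, against 9.75 to 9.82 in the other 4.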

How the results depend on the processing

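The labels give no numbered replicates and no pairing. No paired analysis was possible because replicate numbers were given in accession order and only 3 of 13 mice gave both eyes, always within 1 group. Between the eyes of a mouse limma estimated a correlation of -0.023. Of the recomputed values for single genes, list counts and the median of all genes, 299 kept their direction and side of the threshold or stayed within the spread and 5 moved, and of the values that answer a comparison 143 did, 54 moved and 1 reversed. The cause was not tested.

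The oligodendrocyte median of 2.95 was 3.24 with 3 against 3 libraries, 2.23 with 8 against 8, 2.67 with eyes averaged, 2.31 with group means removed, 2.46 in libraries with an identifier letter, 3.45 with a pseudocount of 0.1, 2.40 in untreated and 1.85 in hydroquinone libraries. It was 2.80 to 3.05 with each library left out. The astrocyte median of 1.11 was 0.77 over genes of at least 5 CPM, 0.78 with 8 against 8, 0.65 with group means removed, 0.46 in libraries with a letter, 1.30 with a pseudocount of 0.1, 0.72 in untreated and 0.40 in hydroquinone libraries, and 1.00 to 1.22 with each library left out. The rod median of 1.65 was -0.22 in libraries without a letter and 4.84 in those with one, and 0.94 to 2.53 with each library left out. Among the libraries with a letter, those higher in Mog were all untreated and the lower ones compared all had hydroquinone.

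The 224 higher genes were 412 with 3 against 3, 39 with 8 against 8, 713 in libraries with a letter and 147 in untreated libraries, and 219 to 271 with each library left out. The 1 lower gene became 2 with TMM or median-of-ratios scaling, 16 with 3 against 3, 0 with 8 against 8, 3 with eyes averaged, 6 with group means removed or a pseudocount of 0.1, 16 and 60 without and with a letter, 5 and 9 in untreated and hydroquinone libraries, 7 without the libraries with the fewest genes, and 2 to 6 with each library left out. Ranking by Mbp gave the same sets.

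The 13 genes called for hydroquinone were 37 with DESeq2, 6 with eyes summed, 8 with Mog as covariate, and 7 to 15 with each library left out. They were 8 or fewer without untreated wild-type replicates 1, 2 or 4, hydroquinone wild-type replicate 4, untreated knockout replicates 3 or 4, or hydroquinone knockout replicates 2, 3 or 4. The fold of Mog moved most without 1 library, between -4.21 and -1.57 for hydroquinone, -0.69 and 2.76 for knockout and 0.38 and 7.30 for the interaction, and it passed in none of these fits. Depth limits statements on Mog in the Mog-low libraries, where 3 counts correspond to 0.085 to 0.128 CPM.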

Other observations

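Several genes of neurons and synapses were higher in the Mog-high libraries without overlap, although the marker lists of retinal neurons were not. They were picked after their values were seen. Kif5a, a kinesin motor of axonal transport, was at 876, 1362, 1256, 991 and 513 CPM in the Mog-high and 153, 23.0, 207, 219 and 50.6 CPM in the Mog-low libraries (log2 difference 3.28). In the 6 libraries between it was at 353, 182, 1114, 724, 944 and 1205 CPM, so its highest values there were not in the libraries highest in Mog. Gria1, a glutamate receptor subunit, showed the same shape, at 24.6 to 54.3 CPM against 1.14 to 6.58 CPM, with 34.5 CPM in hydroquinone knockout replicate 4, where Mog was at 0.810 CPM. Elavl3, a neuronal RNA-binding protein, was at 18.3 to 46.2 CPM against 0 to 9.40 CPM (3.41), and Scg3, a granin of secretory granules, differed by 3.03. Slc24a2, a sodium-calcium exchanger, differed by 3.23. Nnat, neuronatin, was at 13.2 to 104 CPM against 1.82 to 4.78 CPM (3.44).

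Other genes outside the lists gave similar values, also picked after they were seen. Mlc1, a membrane protein of astrocyte end feet, was at 84.6 to 149 CPM against 10.2 to 18.0 CPM (log2 difference 2.95). Gatm, which makes the precursor of creatine, was at 23.7 to 55.8 CPM against 1.86 to 3.95 CPM (3.13). Mural cell genes of the vessel wall leaned the other way. So did the medians of the endothelial, RPE, melanocyte, fibroblast and other macrophage lists, so this direction was not particular to the vessel wall. The summed level of 8 mural cell genes was 443 to 680 CPM in the Mog-high and 751 to 834 CPM in the Mog-low libraries, although each of the 8 genes overlapped on its own (median -0.32).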
